A study of Mus musculus with 2 samples.

Results

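Nuclear receptors are transcription factors, many of which are switched by a small fat-soluble ligand such as a steroid, thyroid hormone or a retinoid. They bind DNA through a zinc finger domain, often as dimers with a retinoid X receptor, and recruit corepressors or coactivators according to the state of their ligand pocket. In fat progenitors the glucocorticoid receptor and the PPAR family take part in starting adipocyte differentiation, and thyroid hormone acts on the thermogenic program. Receptors with no classical ligand are called orphans. Foxp4, a forkhead transcription factor, was mapped here at 45 mouse nuclear receptor genes, named by a list that leaves out Pparg, among 21883 protein-coding genes. A receptor gene was taken to have a peak where the deposited peak list names it as the gene with the nearest start site, or where the midpoint of a peak lies between the first and last base of the gene. By these assignments 15 of the 45 genes had 18 peaks, of 3317 peaks in all.

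The binding sites came from chromatin immunoprecipitation sequencing (ChIP-seq) of the stromal vascular fraction of inguinal white fat of C57BL/6 mice, the mixed non-adipocyte cells that hold the fat progenitors. The series has 1 Foxp4 ChIP library and 1 input DNA library. Both came from cells with no genetic change named in the labels. The cells were grown to confluence (3 days, 20% serum) and then kept for 48 h in a medium that starts beige adipocyte differentiation. That medium held troglitazone (5 µM), the thyroid hormone T3 (50 nM), the glucocorticoid dexamethasone (1 µM), isobutylmethylxanthine (0.5 mM) and insulin (5 µg/ml) with 10% serum. The labels do not say how many animals were pooled. The input library was not analysed here. With 1 peak list, no value has a replicate error, no groups of samples were compared, and read depth is unknown. Each peak has a score from the authors' processing, a whole number with no stated unit, with a median of 65 (quartiles 41 to 104, range 13 to 2569) over all peaks. RNA was not measured, so the identity of the cells was not checked against marker genes, and which receptors the cells express is not given by these data.

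Foxp4 peaks lay over the promoters of 2 receptor genes. One belonged to Rxrb, which encodes retinoid X receptor beta, a dimer partner of many receptors. Its score was 213, rank 252 of 3317, at chr17:34032048-34032578 (mm10), with the midpoint 37 bp before the start site that the list names. The other lay at Rorb, which encodes a retinoid-related orphan receptor known from retina and brain. Its score was 21, rank 3149, at chr19:19111061-19111383, with the midpoint 26 bp before the start site. The 120 bases before each of these start sites are shown because they are the receptor promoters that lie under a peak (RefSeq, GRCm38.p6, the assembly behind mm10; chr17:34032230-34032349, plus strand, and chr19:19111197-19111316, minus strand). Capitals mark a match to the forkhead motif TGTTTAC on either strand.

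Rxrb: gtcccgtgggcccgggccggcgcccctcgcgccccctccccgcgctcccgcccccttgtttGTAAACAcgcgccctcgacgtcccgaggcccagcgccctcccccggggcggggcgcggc
Rorb: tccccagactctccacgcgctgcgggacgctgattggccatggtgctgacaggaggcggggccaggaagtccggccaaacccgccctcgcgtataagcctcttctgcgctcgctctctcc

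The peak covered all 120 bases shown at Rxrb and all 120 at Rorb. The Rxrb sequence has 1 match to TGTTTAC, read on the other strand as GTAAACA and ending 53 bases before the start site. The 250 bases before the Rxrb start site were 82.4% G and C with 39 CpG dinucleotides. The same stretch at Rorb was 66.0% G and C with 18 CpG, against a median of 52.4% (quartiles 45.2 to 61.2) and 6 CpG over 32851 promoters of the RefSeq table. TGTTTAC occurred on either strand in 3.17% of these 32851 promoters, counted over the same 250 bases. The relaxed form TGTTTNC, which includes every TGTTTAC, occurred in 17.8%, and AGGTCA, the hexamer that many nuclear receptors bind, in 14.0%. Rorb held none of the 3 motifs in these 250 bases, and Rxrb held no AGGTCA.

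Promoter sequence was found for 41 of the 45 receptors, with 60 promoters in all. TGTTTAC was present in 2 of these 60 (3.33%), TGTTTNC in 12 (20.0%) and AGGTCA in 9 (15.0%), each close to its share over all promoters. The second promoter with TGTTTAC belonged to Nr2f1, which encodes the orphan receptor COUP-TFI. The stretches of 29 bases around both matches are set together because the same 7 letters lie under a peak in one gene and far from any peak in the other (chr17:34032280-34032308, plus strand, and chr13:78196580-78196608, minus strand).

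Rxrb: cccccttgtttGTAAACAcgcgccctcga
Nr2f1: agagttgtcttTGTTTACatggcaattga

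The match in Nr2f1 lay 142 bases before an internal start site, 2.42 kb inside the gene from its 5′ end, and the promoter at the 5′ end held no match. No peak overlapped either promoter. At Rxrb, too, the start site beside the match was internal, 0.538 kb from the 5′ end, and the promoter at the 5′ end held no match. The closest peak to Nr2f1 was 2240 kb away, with a score of 20, and it was the largest distance among the 45 genes.

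Receptor genes had a peak more often than protein-coding genes did as a whole. By either assignment 15 of 45 receptors had one (33.3%), against 10.4% of the 21883 protein-coding genes. By nearest start site alone the count was 12 of 45 (26.7%), against 9.11% of protein-coding genes. Inside the gene body it was 9 of 45 (20.0%), against 5.36%. Within 3 kb of the start site it was 3 of 45 (6.67%), against 2.08%, and the genes were Rxrb, Rorb and Esr1. Peaks with a score of at least 65, the median, were found at 7 receptors (15.6%), against 5.92% of protein-coding genes. These shares describe 1 library, and no test of the difference was made.

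Receptor genes were also longer, with a median of 47.1 kb against 17.2 kb for all protein-coding genes, and long genes collect more peaks. Among genes over 100 kb, 7 of 12 receptors had a peak (58.3%), against 29.7% of protein-coding genes of that length. Among genes of 20 to 100 kb the count was 6 of 20 (30%), against 11.9%. Among genes under 20 kb it was 2 of 13 (15.4%), against 5.43%. These counts use either assignment, and the length classes do not match genes for the sequence around them. Nr3c1, Thrb, Vdr, Nr4a1, Nr2f2 and Rorb had no peak midpoint inside the gene and counted by nearest start site only. Per length the difference was smaller. The receptor bodies held 11 peaks in 5.18 Mb, or 2.12 peaks per Mb (exact 95% Poisson interval 1.06 to 3.80), against 1.41 peaks per Mb in the bodies of all protein-coding genes (1.34 to 1.48). The 1.41 of all protein-coding genes lies inside the receptors' interval. Both intervals cover counting error only.

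**Figure D1:**
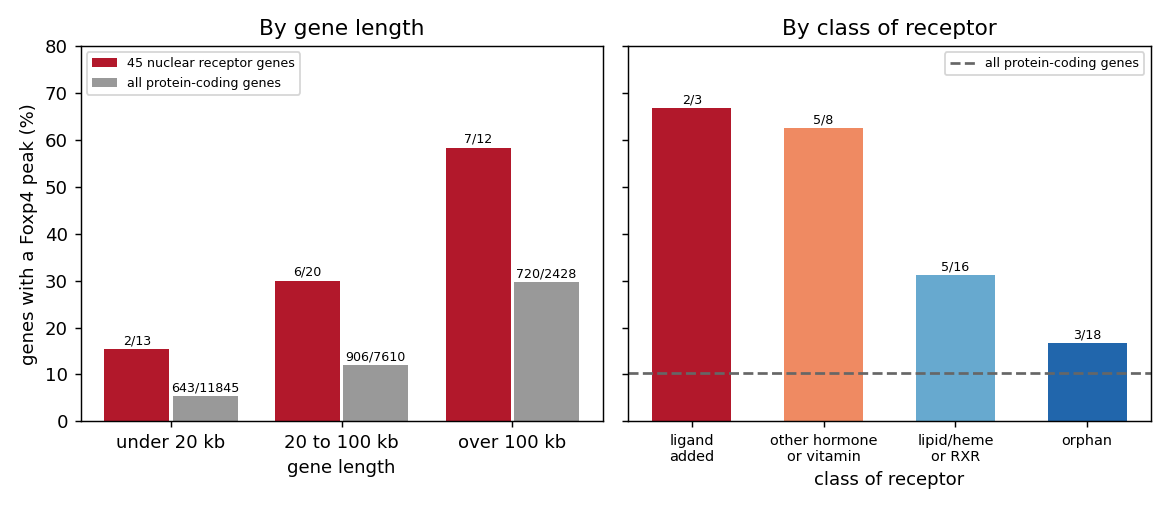
Share of genes with at least 1 Foxp4 peak by either assignment (percent), with counts above the bars. On the left, 45 nuclear receptor genes (red) stand beside all protein-coding genes (grey) by gene length, and the receptors' bar is the higher in each length class (58.3% against 29.7% over 100 kb). On the right, the receptors are split by class, from 2 of 3 with an added ligand to 3 of 18 orphans, and the dashed line is the share over all protein-coding genes, 10.4%.

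Peaks lay at a larger share of the receptors of hormones and vitamins than of the orphans. Of 3 members classed as receptors of a ligand added to the medium, 2 had a peak, the glucocorticoid receptor gene Nr3c1 and the thyroid hormone receptor gene Thrb. The class was set as Nr3c1 for dexamethasone and Thra and Thrb for T3, and no receptor was counted for troglitazone. Of the 18 orphan receptors 3 had one (16.7%, against 10.4% of protein-coding genes), namely Nr4a1, Nr2f2 and Esrrg. With the 8 receptors of other hormones and vitamins added to the 3, the count was 7 of 11 (63.6%). The remaining class, 16 sensors of lipids, bile acids, foreign compounds or heme together with the retinoid X receptors, had 5 of 16 (31.2%). Gene length differed between the classes, with medians of 109 kb for the 3, 63.3 kb for the 8, 56.3 kb for the 16 and 21.3 kb for the orphans. Over 100 kb the count was 4 of 5 hormone and vitamin receptors and 1 of 4 orphans, against 29.7% of protein-coding genes. From 20 to 100 kb it was 3 of 6 and 1 of 6, against 11.9%. Under 20 kb it was 1 of 8 orphans (12.5%), against 5.43%, and no hormone or vitamin receptor was that short. With 1 orphan in each length class, these counts are too small to set apart from the share of all genes. Per length of gene body, the 11 hormone and vitamin receptors held 2.31 peaks per Mb (exact Poisson interval 0.752 to 5.4). The 16 genes of the remaining class held 3.12 (1.01 to 7.27) and the 18 orphans 0.709 (0.0179 to 3.95). Each interval contains the 1.41 of all protein-coding genes. The intervals overlap, so density set no order of the classes, and it leaves out peaks outside the gene. The part of gene length in the difference between classes was not tested, and 3 genes are too few to set a share.

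Neither of the peaks at receptors of added ligands lay in or close to the gene. The Nr3c1 peak, nearest to the gene through which dexamethasone acts, had a score of 62 (rank 1702). It was intergenic and lay 95.2 kb before the start site named in the list, and 63.0 kb from the gene as RefSeq delimits it. The Thrb peak had a score of 83 (rank 1171, chr14:17411999-17412467) and was intergenic, 249 kb before the start site. It lies between Rarb and Thrb, and the same peak was the closest one to the heme receptor gene Nr1d2, 792 kb away. Thra, the other thyroid hormone receptor gene, had no peak, and its closest lay 186 kb away in Rara with a score of 67. Nr3c2, the mineralocorticoid receptor gene, whose product also binds glucocorticoids, had none either. Its closest peak was 184 kb away (score 90). By gene body alone the count was therefore 0 of 3, beside 1 of 18 orphans (5.56%) and 5.36% of protein-coding genes. These counts are near the share of all genes and set no order of the classes. The higher share of the receptors of added ligands by either assignment rests on distal peaks.

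The other hormone and vitamin receptors had the highest median score of the classes, although the Rxrb peak, of another class, scored 213. Their 7 peaks had scores of 65 to 285 with a median of 112, and all 7 reached the median of all peaks. A simple repeat was annotated at 2 of the 7 (28.6%), against 8.59% of all peaks. These were the peaks with scores of 285 and 112, so the median of the class falls on a repeat peak. Esr1, the gene of estrogen receptor alpha, had 2 peaks, and the higher had a score of 285 (rank 146, chr10:4712774-4713222). This peak lay in intron 2 on a (CAA)n simple repeat, 2.84 kb after an internal start site and 101 kb from the 5′ end of the gene. The second lay in intron 3, 66.1 kb after that internal start site, with a score of 121 (chr10:4775892-4776542). Esr2, the other estrogen receptor gene, had no peak, with the closest 369 kb away.

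Pgr, the progesterone receptor gene, also had 2 peaks nearest to its start site. One lay in its intron 2, 10.7 kb after the start, with a score of 76 (chr9:8910371-8910673). The other, with a score of 112 on a (CAAA)n repeat (chr9:9051326-9051725), lay in intron 5 of Arhgap42, 82.9 kb beyond the end of Pgr. Vdr, the vitamin D receptor gene, had 1 intergenic peak 6.01 kb before its start site, with a score of 125 (chr15:97913912-97914697).

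Of the 3 retinoic acid receptor genes, Rara and Rarb had 1 intronic peak each and Rarg had none, with the closest 131 kb away. The Rara peak lay in intron 2 with a score of 67 (chr11:98954524-98954831), 5.79 kb before the nearest start site in the list. It was the closest peak to 3 members, Rara, Thra and Nr1d1, which lie near each other on chromosome 11. The Rarb peak lay in intron 1, 124 kb after the start site, with a score of 65 (chr14:16957877-16958169), equal to the median of all peaks.

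Among the partners and lipid sensors, the peaks other than that of Rxrb scored 21 to 61, below the median of 65. Rxra, the gene of retinoid X receptor alpha, had 1 peak with a score of 25 (rank 3001, chr2:27758397-27758926) in its last intron, 94.6% of the way along the gene. Rxrg, the third of these genes, had none, with the closest 312 kb away. Ppard, a receptor for fatty acids, had 1 peak in intron 2 with a score of 49 (chr17:28256788-28257149), which the list gives to 1810013A23Rik. Rora, which encodes a receptor that competes with the Rev-erb receptors in the circadian clock, had 2 peaks in intron 1, with scores of 61 (chr9:68813124-68813933) and 21 (chr9:68827497-68827840). The list gives both to 9530091C08Rik. The remaining 11 genes of this class had no peak. They include Ppara, a fatty acid receptor, with the closest at 283 kb, and the liver X receptor genes Nr1h2 and Nr1h3, with the closest at 2170 and 818 kb. Nr1d1 and Nr1d2, the Rev-erb genes, had the closest at 179 and 792 kb.

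The 9 peaks of the hormone and vitamin receptors, including those of added ligands, scored 62 to 285, and the 3 peaks at orphan receptors 21 to 38. Of all peaks 23.2% scored 38 or less, and 3 peaks are too few to set a range. With Rora and Rorb counted among the orphans, the highest score of that class was 61. Nr4a1, an immediate early gene, had a score of 38 at chr15:101246148-101246624, in a CpG island 20.5 kb before the start site in the list and 7.52 kb from the gene as RefSeq delimits it. Nr2f2, which encodes COUP-TFII, had a score of 31, 49.5 kb before its start site (chr7:70416104-70416409). Esrrg, an estrogen-related receptor gene, had a score of 21 in intron 4, 84.0% of the way along the gene (chr1:188117942-188118262), in a peak that the list gives to 9330162B11Rik. A peak of at least the median score was found at 6 of the 11 hormone and vitamin receptors and at 0 of the 18 orphans, against 5.92% of protein-coding genes, a share at which 0 of 18 is near the background. The other 15 orphans had no peak, with the closest between 60.3 kb away, at Nr6a1, and 2240 kb away, at Nr2f1. Nr4a2 and Nr4a3, the relatives of Nr4a1, had the closest at 1470 and 540 kb.

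**Figure D2:**
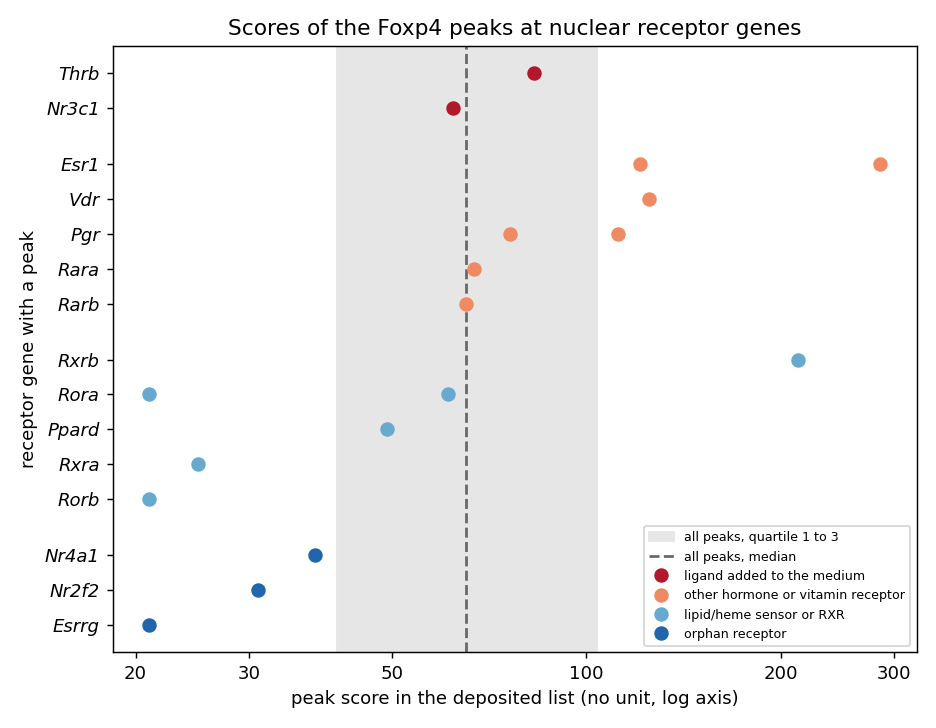
Scores of the 18 Foxp4 peaks at 15 nuclear receptor genes (log axis, no unit), 1 point per peak, grouped and coloured by class of receptor. The grey band spans the quartiles of all 3317 peaks (41 to 104) and the dashed line is their median, 65. All peaks of other hormone and vitamin receptors sit at or above the line, and the 3 peaks of orphans sit left of the band.

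As a set of 18 regions, the receptor peaks had a median score close to that of the whole list. It was 63.5 (range 21 to 285), against 65 for all peaks, and 5 of 18 reached the upper quartile of all peaks. At the lower end, 4 of 18 scored under 30 (22.2%), against 13.0% of all peaks, and the lower quartile was 32.75, against 41. Introns held 11 of the 18 (61.1%), against 38.3% of all peaks, and 5 were intergenic (27.8%), against 50.5%. Peaks inside a gene were counted as members by the assignment itself, which favours introns. Promoter peaks were 2 of 18 (11.1%), against 8.38%, and peaks within 3 kb of a start site 3 of 18 (16.7%), against 16.5%. Peaks over 50 kb from the nearest start site were 7 of 18 (38.9%), against 37.1% of all peaks. A simple repeat was annotated at 2 of 18 (11.1%), those at Esr1 and Pgr, against 8.59%. The median width was 381 bp, against 393 bp for all peaks.

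**Figure D3:**
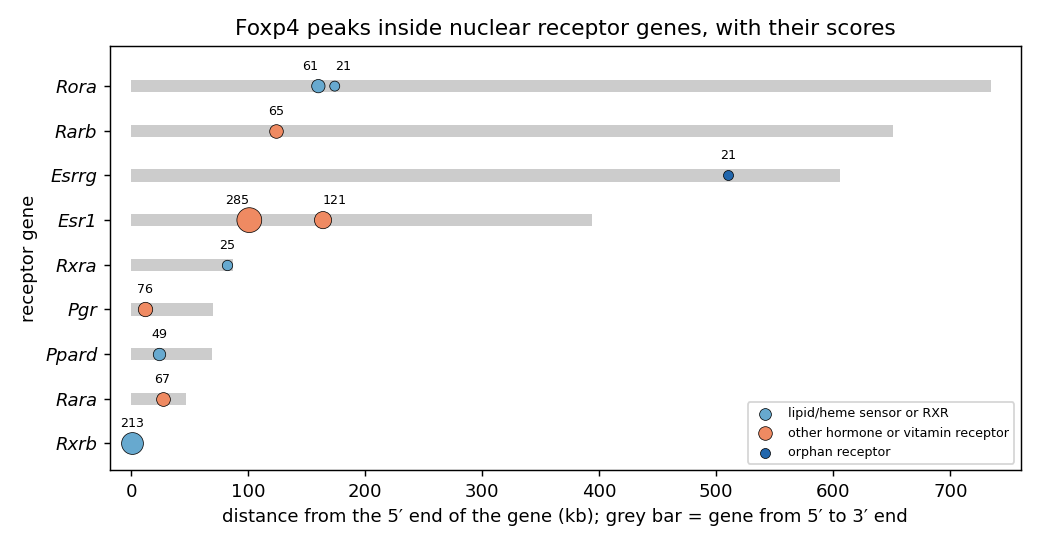
The 11 peaks inside 9 receptor genes, drawn at their distance from the 5′ end of the gene in kb, with the score beside each point and the point area growing with the score. Grey bars show the length of each gene. The peaks in Rxra and Esrrg lie furthest along, at 94.6% and 84.0% of the length, and the peak of Rxrb lies 0.501 kb from its 5′ end.

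The closest peaks were nearer to hormone and vitamin receptor genes than to the others, by the median. Measured from the gene body, the median was 63.0 kb for the 11 hormone and vitamin receptors. Of these, the 3 receptors of added ligands had a median of 186 kb and the 8 others 3.0 kb. The 16 sensors and retinoid X receptors had 294 kb, the 18 orphans 277 kb and all protein-coding genes 277 kb. Median gene length also differed, with 69.7 kb for the 11, 56.3 kb for the 16, 21.3 kb for the orphans and 17.2 kb for all protein-coding genes. The part of gene length in these distances was not tested. A peak lay inside the gene or within 100 kb of it at 6 of 11, 5 of 16 and 4 of 18 genes, against 27.6% of protein-coding genes. Genes within each class varied from 0 kb to at least 369 kb, apart from the 3 receptors of added ligands at 63.0, 186 and 247 kb.

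**Figure D4:**
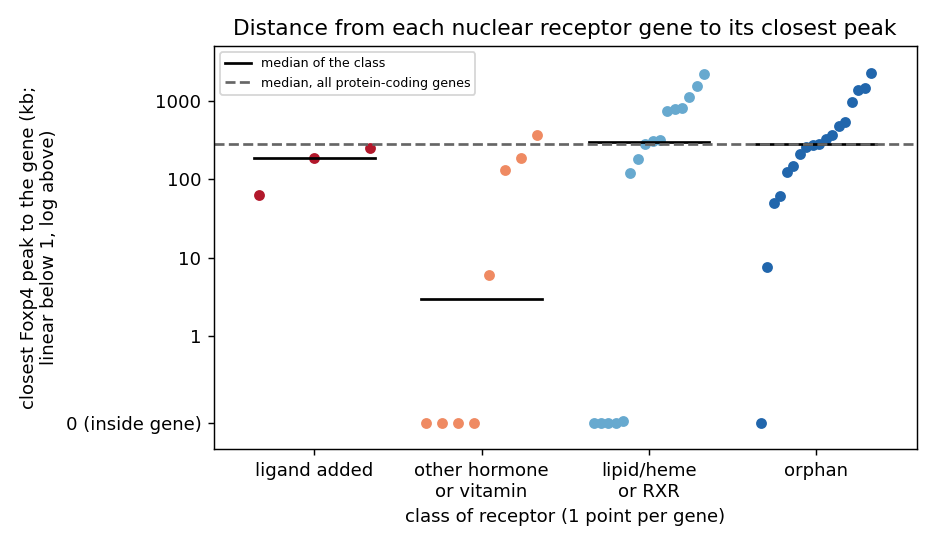
Distance in kb from each of the 45 receptor genes to its closest Foxp4 peak, by class, on an axis that is linear below 1 kb and logarithmic above, with 0 for a peak inside the gene. Short black lines are class medians and the dashed line is the median over all protein-coding genes, 277 kb. The 3 receptors of added ligands sit between 63.0 and 247 kb, and 4 of the 8 other hormone and vitamin receptors sit at 0.

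Foxp4 peaks also lay at coregulators of the receptors. Of 24 coregulator genes 7 had a peak by either assignment (29.2%), against 10.4% of protein-coding genes, and their median length was 86.8 kb. By length the counts were 5 of 11 over 100 kb (45.5%, against 29.7%), 2 of 8 from 20 to 100 kb (25%, against 11.9%) and 0 of 5 under 20 kb (against 5.43%). Coactivators alone had 2 of 7 over 100 kb (28.6%). Per length the coregulators had 1.76 peaks per Mb of gene body (exact 95% Poisson interval 0.571 to 4.10), against 1.41, which lies inside the interval. Among 8 corepressor genes there were 3. Tbl1x and Tbl1xr1 encode subunits of the NCoR and SMRT corepressor complexes. Tbl1x had a score of 111, 102 kb before its start site, and Tbl1xr1 had scores of 95 and 32, 140 and 512 kb before its own. Ncor1, the scaffold of one of these complexes, had a score of 35 in intron 36, in a peak that the list gives to the overlapping gene Ttc19. Among 16 coactivator genes there were 4. The acetyltransferase gene Kat2b had scores of 84 and 45 in introns 1 and 9, and the second is given to Sgo1. Ep300, also an acetyltransferase gene, had a score of 64 at 799 bp before its start site. The steroid receptor coactivator gene Ncoa3 had 65 in intron 1. Ppargc1a, a coactivator of thermogenic genes, had 94 in a peak that the list calls intergenic and gives to Mir6417. That peak lay inside the gene only as RefSeq delimits it, 301 kb from the closest start site with a promoter sequence.

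Of 15 genes that supply hormone or fold receptors, 2 had a peak (13.3%), close to the 10.4% of all protein-coding genes. Dio2, which makes T3 from thyroxine, had a peak 44.6 kb downstream of its start site, which scored 93. Hsp90ab1, a chaperone of steroid receptors, had a score of 28 at 579 bp before its start site. Fkbp5, a glucocorticoid-induced cochaperone gene, had none, with the closest 67.2 kb away (score 138). Hsd11b1, which regenerates active glucocorticoid, had none, with the closest 607 kb away.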

How the data were processed

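The authors deposited a list of peaks of the Foxp4 ChIP library. Peaks of a narrowPeak file were annotated with HOMER's annotatePeaks.pl on mm10, per the file headers. The submitters' processing notes name deepTools 3.3.0, MACS2, Bowtie2, SAMtools and Picard, with no roles. The deposited score is a whole number per peak whose relation to enrichment or a q value is not given in any source used here. Depth and width of a peak may enter it, and it served for ranks and limits inside this list. The distance of each peak to the nearest start site and the nearest gene are other values of the deposited file. The use of the input and of multiply aligned reads is likewise not stated there.

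All 3317 peaks were kept and 1 line without a peak was left out. Gene limits and types came from a RefSeq table of GRCm38.p6 with 21883 protein-coding genes outside the mitochondrial genome. In it 2459 of 2462 nearest genes were found by gene number. All 45 receptors were found. Promoter sequences came from RefSeq, and motifs were counted on both strands in the 250 bases before each start site. No genome sequence was used, so peaks outside these promoters have no sequence here. Counts of genes were set beside the same counts over all protein-coding genes, with exact Poisson intervals for densities (95%) and no test. The members, the classes, the coregulator and hormone supply lists, the motifs and the alternatives were chosen with earlier results of these data known. All members with a peak are named, and Nr3c1, Thra, Thrb, Nr3c2, Rxra and Ppara were named in every case. Other genes without a peak were named after their values were seen. The assignment was tested on simulated peaks. Python 3.11.15, pandas 2.3.3 and scipy 1.17.1 were used.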

Additional observations from a re-analysis of the deposited data

How the results depend on the processing

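With peaks of at least the median score only, 7 receptors had a peak by nearest start site (against 5.15% of protein-coding genes). In the gene body there were 5 (against 2.93%) and by either assignment 7 (against 5.92%). The receptors of added ligands then had 1 of 3 and the orphans 0 of 18, against the same 5.92%. By gene body only these classes had 0 and 1, against 5.36% of protein-coding genes. With Nr1d1, Nr1d2, Rora, Rorb, Hnf4a and Hnf4g among the orphans, 5 of 24 had a peak (20.8%, against 10.4% of protein-coding genes). The other alternatives kept each count within 1.5 times its value: a score of at least 30, any base inside the gene, 20 kb added on each side, windows of 1 and 5 kb, nearest start site only, and Nr3c2 moved to the receptors of added ligands. With 20 kb added, the count by either assignment was 15, against 13.6% of protein-coding genes. The median score of the receptor peaks was 61.5 without simple repeats, 65 inside gene bodies and 71.5 by nearest start site. The exact binomial interval of the median over all 18 peaks was 31 to 112. The alternatives are subsets of these same peaks, so their place inside this wide interval is no test. No paired analysis was possible because the series has 1 ChIP library. The lack of a replicate and of a known read depth limits every value here, since a weak site may be missed and a gene without a peak is not shown to be unbound.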
